A study of Mus musculus with 4 samples.

Results

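Inflammasomes are protein assemblies that turn the detection of microbes or cell damage into cytokine release and lytic cell death. The 10 genes described here encode the sensors Nlrp3, Nlrc4, Mefv, Nlrp1a and Nlrp1b, the adaptor Pycard, the inflammatory caspases Casp1 and Casp4, the pore-forming protein Gsdmd and the redox regulator Txnip. They were picked by name as known genes of the pathway, and each was found in the gene counts by its Ensembl ID, matched without version to the GENCODE M21 symbol. They make up 10 of 52550 gene entries. All 10 were among the 12730 genes tested, those whose CPM (count scaled to library size, after TMM adjustment for library composition) was 1 or more in at least 2 libraries, and Nlrp1a passed that filter through its wild-type libraries, since it had 0 counts in both deficient ones.

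Gene counts came from polyadenylated RNA of bone marrow-derived macrophages, cells grown in culture from marrow progenitors of C57BL/6 mice aged 8 to 10 weeks. The donors were wild type or deficient in miR-7, a microRNA that represses messenger RNAs matching its seed, and the labels do not say how the deficiency was made. Macrophages of either genotype were kept without stimulus or received bacterial lipopolysaccharide (LPS) at 100 ng/mL for 12 hours. Every group was a single library, so the differences within a pair of libraries have no replicate check, and mouse, culture and library cannot be told apart from the treatment or genotype. Series of 4 values below follow the order wild-type unstimulated, wild-type LPS, deficient unstimulated and deficient LPS.

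In the canonical route, a sensor recruits Pycard, whose filaments gather and activate caspase-1, which then cleaves pro-interleukin-1β, pro-interleukin-18 and gasdermin D. In the non-canonical route, mouse caspase-11, the product of Casp4, binds LPS that has reached the cytosol and cleaves gasdermin D directly. Macrophages need a first signal, such as Toll-like receptor activation by LPS, to raise the messenger RNA of several of these proteins, while assembly needs a second signal that RNA levels do not record. Nlrp3 messenger RNA has been reported as a miR-7 target in mouse microglia.

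Because the donors differed in miR-7, its sequences are shown first, as RefSeq gives them on GRCm38.p6, with the seed (bases 2 to 8) in capitals. Both mature forms carry the same seed, and miR-7a comes from loci on chromosomes 7 and 13 and miR-7b from chromosome 17.
mmu-miR-7a-5p: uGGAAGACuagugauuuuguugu
mmu-miR-7b-5p: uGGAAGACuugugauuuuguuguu
Matches to the seed were searched on the sense strand of the longest annotated 3′ UTR in GENCODE M21, as GTCTTCC or TCTTCCA, which overlap when both are present. A match stood in 3 of the 9 genes that have an annotated 3′ UTR there, against 26.38% of 11296 tested genes with one. The matching stretches are shown in capitals with their flanks.
Nlrp3: ccttcagtcttGTCTTCCtgttaact
Nlrc4: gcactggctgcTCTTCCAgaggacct
Pycard: ccagtagctacTCTTCCAagtgttat
These began at base 428 of 693 in Nlrp3, base 111 of 1404 in Nlrc4 and base 1151 of 3004 in Pycard. No match was found in the UTRs of Nlrp1b, Casp1, Casp4, Gsdmd, Txnip and Mefv, and Nlrp1a has no annotated 3′ UTR. Such matches describe letters and do not show binding.

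Library totals lay between 33937823 and 42074624 counts, with 18156 to 18613 gene entries counted in each. All 10 macrophage markers were detected, with summed levels of 22976, 13738, 23478 and 15558 CPM, led by Lyz2 at up to 18594.5 CPM. Summed levels of B cell, NK cell, eosinophil and erythroid markers stayed at or below 0.875 CPM. Neutrophil markers summed to 7.55 to 10.6 CPM, led by S100a8 (up to 8.73 CPM) and with Ly6g, Elane and Retnlg at 0. T cell markers summed to 0.513 to 4.87 CPM, led by Cd4 (up to 4.56 CPM) and with Cd3d at 0. Mast cell and basophil markers summed to 0.153 to 7.36 CPM, led by Cpa3 (up to 7.36 CPM) and with Mcpt8, Ms4a2 and Tpsb2 at 0. Dendritic cell markers summed to 28.7, 159, 37.0 and 325 CPM, led by the chemokine receptor Ccr7 and with Flt3 at 0, and stromal markers to 2.44, 16.0, 2.04 and 18.9 CPM, led by Pdgfrb. These last 2 sums were higher with LPS in both genotypes, and their part in the LPS results was not tested. In bulk RNA, fewer cells of a type and less RNA per cell cannot be told apart. The miR-7 precursor entry Mir7-1 had 15, 10, 7 and 7 counts and Mir7-2 and Mir7b had 0, so these libraries give no measure of mature miR-7. Hnrnpk, the host gene of Mir7-1, stood at 227, 213, 229 and 183 CPM.

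The libraries of both genotypes differed from each other also in genes that mark the sex of the donor. Y-linked Ddx3y had 2013, 1537, 9 and 12 counts and Kdm5d 1032, 419, 0 and 0, whereas X-linked Xist had 24, 16, 28015 and 25701. Genotype and donor sex can therefore not be told apart in any genotype difference given below. A set of 20 genes was under 1 CPM in the deficient unstimulated library and at 50 CPM or more in the deficient LPS library. Their unscaled counts in the wild-type unstimulated library were a median of 2.38% of those in the wild-type LPS library. Genes of this set thus had some counts in the wild-type unstimulated library, whose source was not tested. They were chosen for low levels in the deficient unstimulated library, so the choice itself sets any contrast with that library. No set chosen for low levels in the wild-type unstimulated library was examined. Where the share is subtracted below, the same share of the wild-type LPS count was taken from every gene.

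Most of these genes rose with LPS, while the adaptor gene Pycard and Txnip fell. In a model of all 4 libraries with genotype and LPS as terms, 6 of the 10 genes rose, led by Casp4 and Mefv, 2 fell and 2 did not pass. Over all tested genes 18.0% rose and 16.3% fell. The median fitted LPS change of the 10 genes was 1.14 on the log2 scale, against -0.04 for all tested genes. Adjusted p-values here come from edgeR's quasi-likelihood test with Benjamini-Hochberg adjustment over all tested genes. With 1 library a group, the wild-type and the deficient LPS pair stand in for replicates, so these p-values rest in part on how alike the pairs are. The test also draws on the spread of all tested genes, with 5.18 degrees of freedom against 1 from the gene itself. A gene with unlike pairs can therefore pass, such as Txnip, 7.07-fold lower in the wild-type and 2.28-fold lower in the deficient pair. Scaling by total counts instead of TMM moved the median LPS change of all genes from -0.04 to -0.45, and with it 5 of the 10 rose, against 12.2% of tested genes, and 3 fell, against 30.2%, Nlrc4 leaving the calls and Nlrp1a entering them.

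**Figure D1:**
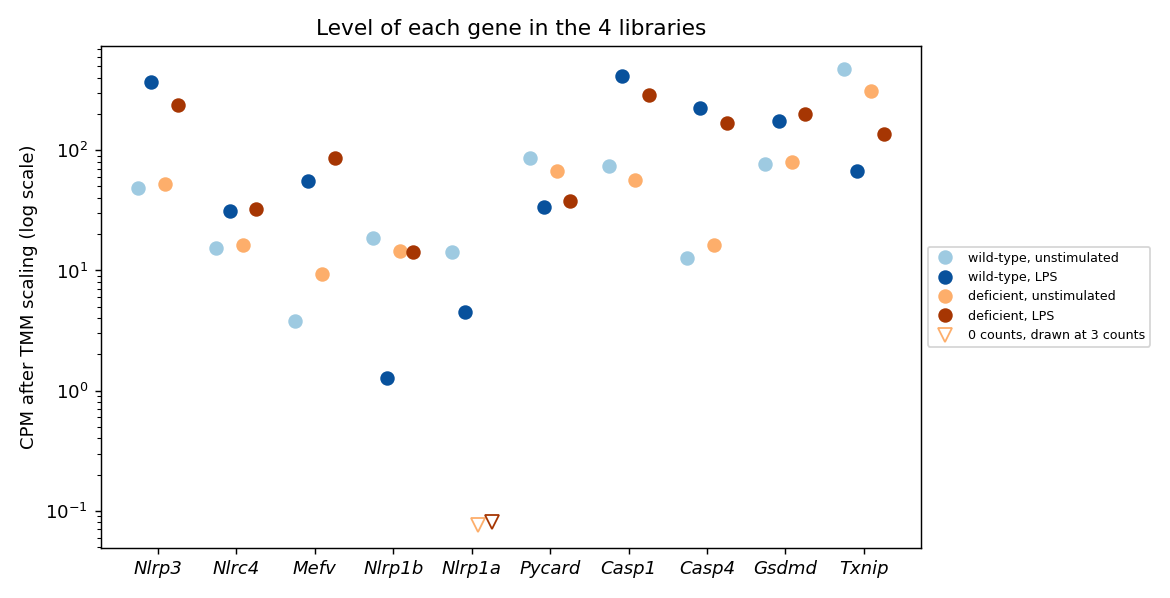
Level of each gene in CPM after TMM scaling (log axis), 1 point per library, with open triangles for 0 counts drawn at 3 counts. Casp4, Mefv, Nlrp3, Casp1, Gsdmd and Nlrc4 lie higher in both LPS libraries, Pycard and Txnip lie lower, and Nlrp1a is at 0 in both deficient libraries.

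Per kilobase of annotated exon, the unstimulated wild-type library held Txnip at 153 CPM per kb, Casp1 at 49.4, Gsdmd at 32.4, Pycard at 22.6 and Nlrp3 at 11.9, with Nlrp1a, Casp4, Nlrc4 and Nlrp1b between 2.93 and 3.42 and Mefv at 1.16. In that library the adaptor, caspase-1 and gasdermin D were thus present well above Casp4 and most sensors. In the wild-type LPS library the order became Casp1 at 279 CPM per kb, Nlrp3 at 90.5, Gsdmd at 74.2, Casp4 at 60.6, Txnip at 21.6, Mefv at 17.0, Pycard at 8.93, Nlrc4 at 6.46, Nlrp1a at 1.09 and Nlrp1b at 0.201. The deficient LPS library differed from it in order, with Gsdmd at 85.0 above Nlrp3 at 58.9, and Nlrp1b at 2.26 against 0 for Nlrp1a. With 1 library per group, neighbours in these orders have no spread to be judged against.

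Among the sensors, Nlrp3, which responds to potassium efflux and other signs of membrane or organelle damage, lies at chr11:59541568-59566956 (plus strand; gene positions here and below are those of GENCODE M21 on GRCm38, and counts cover exons). Its level was 48.4, 367, 52.3 and 239 CPM. Both LPS libraries were far above both unstimulated ones, the wild-type one highest, and the fitted LPS change was 2.56 ± 0.25 (log2, SE; adjusted p = 0.000792). Counted pair by pair, Nlrp3 was 7.58-fold higher with LPS in wild-type cells and 4.57-fold higher in deficient cells.

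Mefv encodes pyrin, which detects the inactivation of RhoA GTPases by bacterial toxins. The gene lies at chr16:3707218-3718097 (minus strand). It stood at 3.78, 55.4, 9.38 and 85.9 CPM, lowest per kilobase of the 10 genes in unstimulated wild-type cells. Its libraries separated fully by LPS, and within each condition the deficient library was the higher one. The fitted LPS change was 3.53 ± 0.27 (adjusted p = 0.000377), with ratios of 14.6-fold in wild-type and 9.16-fold in deficient cells.

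Nlrc4, which assembles with NAIP proteins that bind flagellin and secretion-system components, lies at chr17:74425438-74459142 (minus strand) and had 15.4, 31.1, 16.2 and 32.2 CPM. The genotypes nearly coincided in each condition. The fitted LPS change of 1.001 ± 0.21 passed the test (adjusted p = 0.0124), but not with scaling by total counts, where it was 0.59 (adjusted p = 0.0634). The LPS ratios were 2.02-fold in wild-type and 1.99-fold in deficient cells.

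Nlrp1a and Nlrp1b are rodent paralogs of the NLRP1 sensor, whose assembly follows degradation of an inhibitory fragment, in the case of Nlrp1b after cleavage by anthrax lethal factor. They lie side by side on chromosome 11, Nlrp1a at chr11:71092236-71144704 and Nlrp1b at chr11:71153102-71230733, both on the minus strand. Of the 50-base stretches of their transcripts, 2.07% for Nlrp1a and 1.45% for Nlrp1b also occur in another annotated gene, Nlrp1c-ps included. Nlrp1b had 864, 42, 567 and 534 counts, or 18.5, 1.27, 14.5 and 14.3 CPM. The wild-type LPS library stood alone below all the others. Its LPS ratio was 14.6-fold lower in wild-type cells and 1.01-fold lower in deficient cells, and the fitted change of -1.81 ± 0.91 did not pass the test (adjusted p = 0.178). Nlrp1a had 667, 150, 0 and 0 counts, or 14.3, 4.52, 0 and 0 CPM, so an LPS ratio could be formed in wild-type cells only, where it was 3.15-fold lower. Its fitted LPS change of -1.64 ± 0.52 did not pass (adjusted p = 0.0643). Of 12 alternatives it passed in 2, total-count scaling (adjusted p = 0.0355) and the newer quasi-likelihood fit of edgeR (adjusted p = 0.0424). Among those it did not pass were DESeq2 size factors (adjusted p = 0.0786) and no filter on low counts (adjusted p = 0.116). DESeq2's Wald test, with a fitted change of -0.85, did not call it either (adjusted p = 0.907).

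The adaptor Pycard, which encodes ASC and lies at chr7:127989708-127993867 (minus strand), fell. Its levels were 85.8, 33.9, 67.7 and 38.2 CPM, both LPS libraries below both unstimulated ones. The fitted LPS change was -1.08 ± 0.22 (adjusted p = 0.0117), and the ratios were 2.53-fold lower in wild-type and 1.78-fold lower in deficient cells. Pycard shares 485 of its 3800 exonic bases with Gm45205 on the opposite strand, and since the strand setting of the counting is not stated, reads of both cannot be told apart there.

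Both inflammatory caspases rose. Their genes are neighbours on the plus strand, Casp1 at chr9:5298517-5307265 and Casp4 at chr9:5308828-5336783. Casp1, whose product matures interleukin-1β and interleukin-18, stood at 73.9, 417, 56.6 and 287 CPM, with a fitted LPS change of 2.42 ± 0.19 (adjusted p = 0.000437). Casp4, the gene of caspase-11, stood at 12.6, 225, 16.2 and 168 CPM. Both LPS libraries were far above both unstimulated ones, and its fitted LPS change of 3.77 ± 0.27 (adjusted p = 0.000309) was the highest of the 10 genes. The LPS ratio of Casp4 was 17.9-fold in wild-type and 10.4-fold in deficient cells, and that of Casp1 was 5.65-fold and 5.07-fold.

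The Casp4 promoter is shown because it was the only one of the 9 genes with a RefSeq promoter (all but Gsdmd) that held the NF-kB letters GGGNNTTTCC, searched on both strands. NF-kB is the factor that Toll-like receptor signalling activates. The window covers 250 bases before to 50 after the annotated start, chr9:5308599-5308898 on the plus strand of GRCm38.p6, with the matches in capitals.
Casp4 promoter: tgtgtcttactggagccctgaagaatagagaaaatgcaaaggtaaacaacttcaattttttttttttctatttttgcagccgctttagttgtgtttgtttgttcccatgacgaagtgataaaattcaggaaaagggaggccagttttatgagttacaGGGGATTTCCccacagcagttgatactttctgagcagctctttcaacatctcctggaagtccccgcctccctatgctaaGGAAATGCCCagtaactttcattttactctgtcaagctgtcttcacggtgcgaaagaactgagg
The first match, GGGGATTTCC, spans bases -93 to -84 from the start, and the second, GGAAATGCCC, lies on the reverse strand at -14 to -5. A further annotated start, in an overlapping window, holds the same matches. These letters occur in 1.629% of 32851 RefSeq promoters. They were tightened from GGGNNNNNCC, which 50.79% of promoters hold, after that share was seen. The interferon-stimulated letters GAAANNGAAA (3.443% of promoters) and the STAT letters TTCNNNGAA (8.298%) matched none of the 9 genes' windows, which says only that these letters are absent there. A match is a description of letters, not evidence of a bound factor.

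Gsdmd, whose cleaved product forms the membrane pores of pyroptosis, lies at chr15:75862327-75867408 (plus strand) and stood at 77.0, 176, 79.3 and 202 CPM. The unstimulated libraries nearly coincided and both LPS libraries were higher. The fitted LPS change was 1.27 ± 0.18 (adjusted p = 0.00336), with ratios of 2.29-fold in wild-type and 2.55-fold in deficient cells.

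Txnip, an arrestin-like protein that binds thioredoxin, limits glucose uptake and has been reported to bind Nlrp3 under oxidative stress, lies at chr3:96557957-96561883 (plus strand) and had the highest level per kilobase of the 10 genes in both unstimulated libraries. Its values were 477, 67.4, 309 and 135 CPM. Both LPS libraries were below both unstimulated ones, and the deficient values lay between the wild-type ones. The fitted LPS change was -2.004 ± 0.40 (adjusted p = 0.0113), made up of a 7.07-fold lower level in the wild-type pair and a 2.28-fold lower level in the deficient pair. Txnip shares 606 of its 3123 exonic bases with Gm15441 on the opposite strand.

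The Txnip promoter is shown for its carbohydrate response element, the paired E-box-like sequence through which glucose-sensing Mlx complexes act. The letters CACGNGNNNNNCACGNG, searched on both strands, matched no other of the 9 genes and 0.0487% of all promoters. The window is chr3:96557707-96558006 on the plus strand of GRCm38.p6, and the match in capitals spans -85 to -69 from the start.
Txnip promoter: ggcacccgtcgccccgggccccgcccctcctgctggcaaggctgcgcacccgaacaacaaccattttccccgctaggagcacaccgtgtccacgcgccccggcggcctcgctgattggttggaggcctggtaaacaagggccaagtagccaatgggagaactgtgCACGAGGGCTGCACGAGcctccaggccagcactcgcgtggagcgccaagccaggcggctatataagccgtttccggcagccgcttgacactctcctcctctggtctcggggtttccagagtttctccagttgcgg
Arrdc4, the arrestin-family gene known to respond to the same glucose-sensing factors, stood at 47.0, 45.4, 55.8 and 52.1 CPM and its fitted LPS change of -0.08 ± 0.19 did not pass the test (adjusted p = 0.789). Slc2a1, the glucose transporter whose surface level Txnip limits, rose, with 113, 1133, 128 and 292 CPM. The wild-type LPS library was far above the deficient one, and the fitted change was 2.26 ± 0.51 (adjusted p = 0.0177). Txn1, the thioredoxin that Txnip binds, rose from 218 and 233 CPM to 697 and 594 CPM (1.51 ± 0.20, adjusted p = 0.00265).

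Pair by pair, 5 genes (Casp1, Casp4, Gsdmd, Mefv and Nlrp3) were higher with LPS in wild-type cells by more than 2-fold over the whole 95% counting interval, against 14.8% of tested genes. In the same pair 4 genes (Nlrp1a, Nlrp1b, Pycard and Txnip) were lower by that limit, against 13.3%. In deficient cells the same 5 genes were higher, against 12.5%, and Txnip alone was lower, against 11.8%. With total-count scaling, 4 of the 10 were higher in deficient cells, against 9.16%, and 2 lower, against 18.8%, Gsdmd leaving the higher and Pycard entering the lower ones. These intervals and the floor used below cover counting error only.

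**Figure D2:**
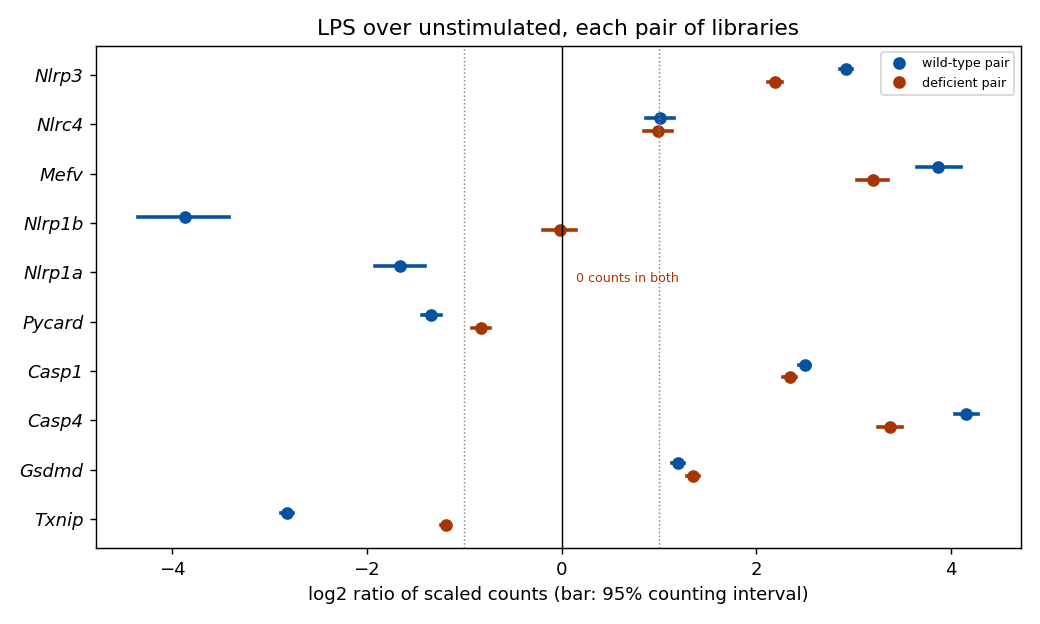
Log2 ratio of scaled counts, LPS over unstimulated, for each gene in the wild-type and the deficient pair, with bars for 95% counting intervals and dotted lines at 2-fold. Casp4, Mefv, Nlrp3, Casp1 and Gsdmd lie right of the 2-fold line in both pairs, and Nlrp1b lies at -3.87 in wild-type and at -0.02 in deficient cells.

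The LPS ratios of the wild-type and deficient pairs were set against each other as a ratio of ratios. Of the 10 genes, 2 had a higher ratio in deficient cells with the whole interval beyond 2-fold, against 2.26% of tested genes, and 0 had a lower one, against 3.82%. Nlrp1b differed by 3.83 on the log2 scale (counting interval 3.35 to 4.31) and Txnip by 1.63 (1.55 to 1.71). With a 1.5-fold limit, Casp4 at -0.79 (-0.95 to -0.62) and Nlrp3 at -0.73 (-0.82 to -0.63) were lower, against 8.94% of tested genes, and 2, again Nlrp1b and Txnip, were higher, against 6.07%. With the 2.38% share subtracted from the wild-type unstimulated library, Casp4 at -1.30 was 1 lower gene beyond 2-fold, against 5.12%, and 2 were higher, against 1.88%. Mefv, at -0.67 (-0.95 to -0.40) without that subtraction, was negative too. In Nlrc4 the difference was -0.02 (-0.22 to 0.17), in Gsdmd 0.16 (0.07 to 0.24), in Casp1 -0.16 (-0.24 to -0.07) and in Pycard 0.51 (0.38 to 0.64). For Nlrp1a the interval ran from -3.94 to 7.38, since the deficient pair held no counts. A single library per group gives no test of these differences.

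Between genotypes, Nlrp1a stood apart among the 10 genes, since it was counted in both wild-type libraries and had none in either deficient one. It entered the test through the wild-type libraries, in which it is high, so its call there adds nothing to these counts. In the same model 0 of the 10 genes were higher in deficient cells, against 0.385% of tested genes, and 1 was lower, against 0.165%. Nlrp1a, the lower one (adjusted p = 0.0120), was 186-fold lower without LPS and 56.5-fold lower with LPS against a floor of 3 counts in each deficient library. Its counting intervals reached to smaller differences, log2 -7.24 without LPS and -5.50 with LPS. DESeq2's Wald test did not call it (adjusted p = 0.277), and neither did the model after subtracting from the wild-type unstimulated library the 2.38% share described above (adjusted p = 0.0878). At an unadjusted p under 0.05, Mefv (fitted change 0.96 ± 0.25, higher in deficient cells, adjusted p = 0.316) and Casp1 (-0.46 ± 0.18, adjusted p = 0.628) also stood, and DESeq2's Wald test called 0 of the 10. The shares of all tested genes at that unadjusted limit and by the Wald test were not computed. The median genotype change of the 10 genes was 0.014, and that of all tested genes 0.016.

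In the pair of libraries without LPS, Mefv alone was higher in deficient cells beyond 2-fold, against 2.82% of tested genes, at 2.48-fold (log2 1.31, counting interval 1.05 to 1.58), and Nlrp1a alone was lower, against 1.41%. With LPS, Nlrp1b alone was higher, against 2.58%, at 11.3-fold (log2 3.49, interval 3.04 to 3.98), and Nlrp1a alone was lower, against 3.04%. Txnip was 1.54-fold lower without LPS and 2.01-fold higher with LPS in deficient cells, and its LPS-pair interval of 0.93 to 1.08 straddled the 2-fold limit but lay beyond it with total-count scaling, making 2 of the 10 higher, against 2.97%, with 1 lower, against 2.6%. The unstimulated and LPS Mefv ratios had the same direction, 2.48-fold and 1.55-fold.

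**Figure D3:**
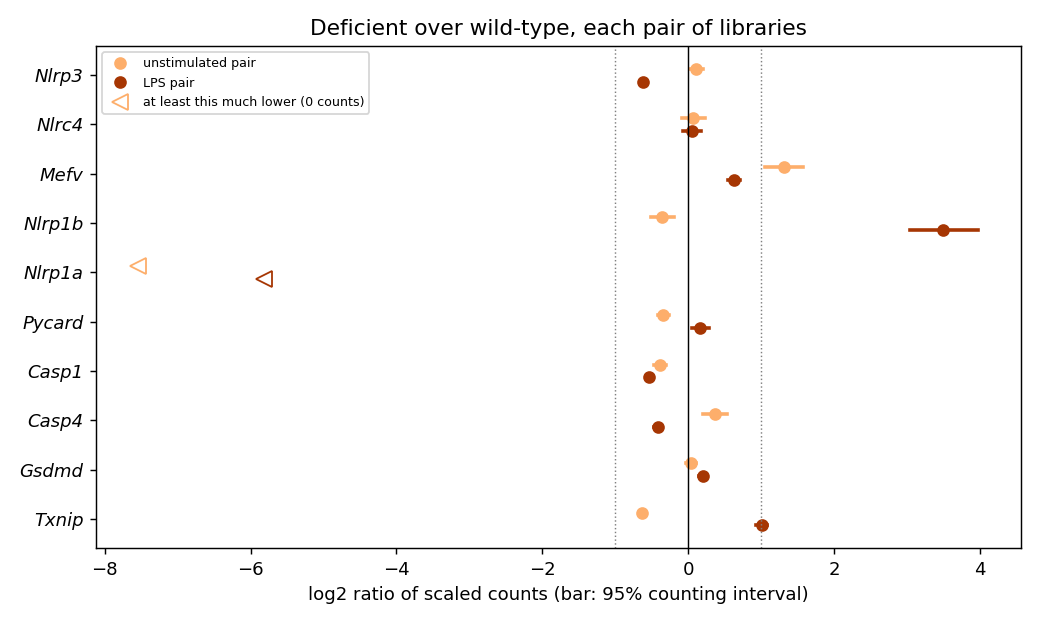
Log2 ratio of scaled counts, deficient over wild-type, for each gene in the unstimulated and the LPS pair, with bars for 95% counting intervals, dotted lines at 2-fold and open triangles where the deficient library had 0 counts. Nlrp1a is the lowest in both pairs, Nlrp1b the highest with LPS at 3.49, and Nlrc4 and Gsdmd lie within 0.20 of 0.

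The genes with a miR-7 seed match had no common direction between genotypes in the single pairs. Nlrp3 was 1.08-fold higher in deficient cells without LPS and 1.54-fold lower with LPS, with a fitted change of -0.26 ± 0.23 (adjusted p = 0.947). Nlrc4 was 1.05-fold and 1.04-fold higher (fitted 0.06 ± 0.20, adjusted p = 0.994). Pycard was 1.27-fold lower without LPS and 1.12-fold higher with LPS (fitted -0.09 ± 0.22, adjusted p = 0.993). None of these 3 fitted changes passed the test, which measures RNA and not protein, and a p that misses the threshold does not show that the levels were equal. Casp4, Gsdmd, Txnip and Nlrp1b had fitted genotype changes of -0.03 ± 0.24, 0.12 ± 0.18, 0.19 ± 0.39 and 1.42 ± 0.91, with adjusted p-values between 0.881 and 0.996, and that of Casp4 turned to a positive sign, 0.0075, with total-count scaling.

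Since Nlrp1a was absent from the deficient counts, its surroundings on chromosome 11 were examined within 1 Mb on each side, a window with 87 gene entries of which 35 were tested. Of the 34 tested genes other than Nlrp1a, 29 had no counting interval wholly beyond 2-fold in either genotype pair, and 0 passed the genotype test. With the whole interval beyond 2-fold in a pair, Mgl2, Rnasek, Mis12 and Pimreg were lower in deficient cells, and Nlrp1b was the one higher. By that limit 1.41% of all tested genes were lower without LPS and 3.04% with LPS, and 2.82% and 2.58% were higher. The share of all tested genes beyond it in either pair was not computed. Alox12, among the 29, had a log2 ratio of 1.517 without LPS, from 5 wild-type and 12 deficient counts. Mis12, a kinetochore gene and the nearest tested gene on the side away from Nlrp1b, had 27.6, 33.8, 2.55 and 23.0 CPM, low in the deficient unstimulated library alone. The pseudogene Nlrp1c-ps, not tested because it reached a CPM of 1 in 1 library alone, had 340, 0, 0 and 0 counts. Against a floor of 3 counts it was 95.04-fold lower in the deficient than in the wild-type unstimulated library. Over all tested genes, 4 (0.0314%) had 0 counts in both deficient libraries, namely Nlrp1a, Glrp1 and the Y-linked Kdm5d and Uty, and 9 had 0 in both wild-type libraries.

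**Figure D4:**
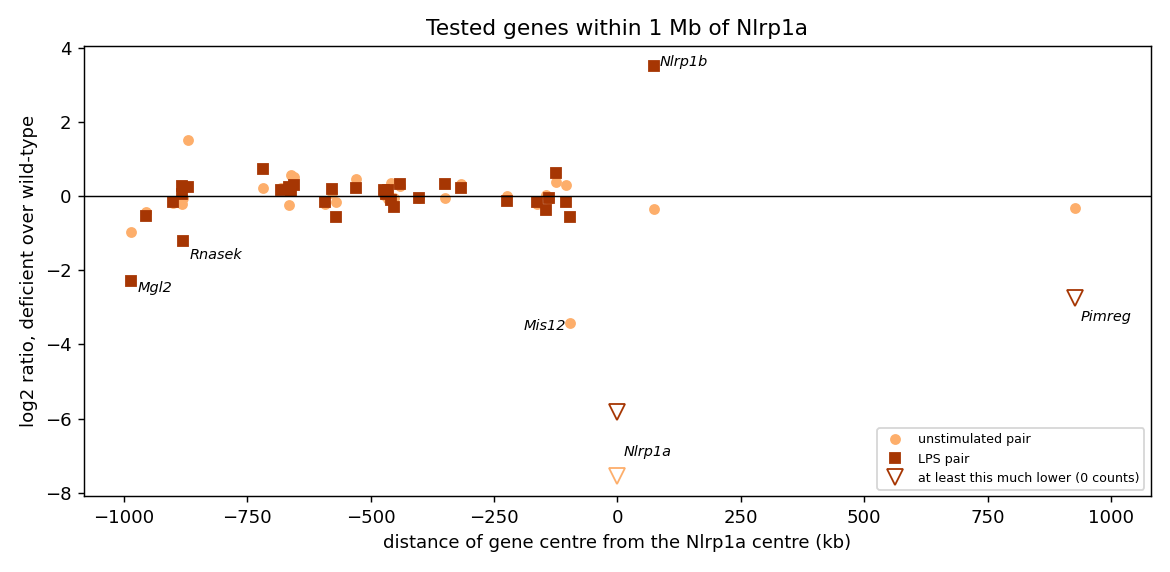
Log2 ratio of scaled counts, deficient over wild-type, of tested genes within 1 Mb of Nlrp1a against distance between gene centres in kb, for the unstimulated pair (circles) and the LPS pair (squares), with open triangles for genes with 0 counts in the deficient library. Nlrp1a lies below all other genes, and Nlrp1b lies at 3.49 in the LPS pair. In neither pair did 29 of 34 other genes have a counting interval (not drawn) wholly beyond 2-fold. Of all tested genes, 1.41% were lower by that limit in the unstimulated pair and 3.04% in the LPS pair, and 2.82% and 2.58% were higher.

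Other genes of the pathway were taken as lists by role, 51 genes in all, of which 44 were tested. With LPS 24 rose, 4 fell and 16 did not pass, to be read, like the counts of each list below, against the 18.0% of tested genes that rose and 16.3% that fell, and their median fitted LPS change was 1.22. With total-count scaling 24 rose and 9 fell, against 12.2% and 30.2%. Between genotypes 0 of the 44 passed with edgeR, and 1, the membrane-repair gene Chmp3, stood at an unadjusted p under 0.05 and was called by DESeq2's Wald test. The lists were chosen with earlier results of these libraries known, so their counts describe and do not support a theme.

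Of 6 genes of cytokine substrates and their antagonists 5 rose, and the antagonist Il1r2 did not pass (0.08 ± 0.44, adjusted p = 0.899). Their median fitted LPS change was 3.65, and that of genes that help expose cytosolic LPS to caspase-11, mostly guanylate-binding proteins, was 5.42. Il1b stood at 73.1, 5566, 12.999 and 5406 CPM (7.47 ± 0.71, adjusted p = 0.000765) and Il1a at 67.1, 5510, 31.6 and 5190 CPM (6.86 ± 0.37, adjusted p = 0.000173). Both were near-equal between genotypes with LPS and higher in the wild-type than in the deficient unstimulated library, where the 2.38% share noted above falls and its part was not tested. Il18, which inflammasomes also mature, rose from a low level, with 2.95, 8.93, 1.89 and 10.3 CPM (2.01 ± 0.37, adjusted p = 0.00827). All 5 genes of the list on exposure of cytosolic LPS, 4 of them guanylate-binding proteins, rose, with Gbp2 at 74.5, 4154, 71.9 and 3874 CPM and Gbp5 at 19.2, 1624, 7.39 and 1961 CPM, fitted changes of 5.78 ± 0.25 and 7.22 ± 0.50.

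Of 6 tested sensors and partners outside the 10 genes, 2 rose, 1 fell and 3 did not pass. Naip2, which couples secretion-system rod protein to Nlrc4, stood at 96.5, 303, 147 and 367 CPM (1.49 ± 0.20, adjusted p = 0.00248). Aim2, the sensor of cytosolic DNA, stood at 30.3, 77.8, 39.5 and 72.9 CPM (1.12 ± 0.22, adjusted p = 0.00984). Nlrp10 fell, with 3.51, 0.663, 5.86 and 1.71 CPM (-2.07 ± 0.43, adjusted p = 0.0133). Naip5, which binds flagellin, had a fitted change of 0.47 ± 0.19 that did not pass (adjusted p = 0.101). The Naip genes are close paralogs, and how reads matching several of them were counted is not stated, so their separate values are uncertain. Nlrp6 and Nlrp12 had 0 counts in every library.

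Of the 6 tested regulators of assembly 0 passed for LPS with edgeR, 0 stood at an unadjusted p under 0.05, and DESeq2's Wald test called 0. They included Dpp8, a peptidase of the family that restrains Nlrp1 proteins (-0.33 ± 0.18), Sugt1, a co-chaperone of NLR proteins (0.50 ± 0.21), and Brcc3, a deubiquitinase acting on Nlrp3 (0.70 ± 0.35), with adjusted p-values from 0.121 to 0.207. Brcc3 had 507, 913, 417 and 412 counts, high in the wild-type LPS library alone. Nek7, the kinase that binds Nlrp3 in the assembled inflammasome, had 144, 58.0, 49.4 and 175 CPM, so the wild-type unstimulated and deficient LPS libraries were high and the remaining ones low. Its fitted LPS change was 0.26 ± 0.74 (adjusted p = 0.814). Unlike LPS pairs, as in Nek7 and Brcc3, count as spread in this model, so a missed call does not show an unchanged level. The shares of all tested genes at the unadjusted limit and by the Wald test were not computed.

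Casp8, an initiator caspase that can also act on gasdermins, stood at 71.2, 199, 70.2 and 156 CPM and rose (1.32 ± 0.19, adjusted p = 0.00358). Among 5 tested genes of other gasdermins, rupture and repair, 2 rose and 2 fell. Ninj1, which ruptures the membrane after pore formation, stood at 56.6, 280, 84.8 and 257 CPM (1.95 ± 0.24, adjusted p = 0.00183), and Chmp4b, of the ESCRT machinery that repairs the membrane, at 224, 577, 218 and 619 CPM (1.44 ± 0.19, adjusted p = 0.00263). Gsdme, a further pore-forming gasdermin, fell, with 17.7, 7.99, 18.0 and 7.80 CPM (-1.18 ± 0.23, adjusted p = 0.0106), and Chmp3, also of ESCRT, fell too. In both LPS pairs Gsdmd was higher and Gsdme lower.

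Of the 3 channel genes 1 rose, 1 fell and 1 did not pass. Panx1, a channel that releases ATP, stood at 32.3, 97.1, 34.0 and 73.9 CPM (1.35 ± 0.21, adjusted p = 0.00485), and Kcnk6, a potassium channel linked to Nlrp3 activation, fell from 96.8 and 77.8 to 32.9 and 35.5 CPM (-1.34 ± 0.21, adjusted p = 0.00458). Of 5 transcription factors reported to act on inflammasome genes 3 rose. Irf1 stood at 19.2, 101, 21.6 and 119 CPM (2.43 ± 0.19, adjusted p = 0.000448) and Nfkb1 at 81.7, 376, 121 and 424 CPM (2.01 ± 0.21, adjusted p = 0.00101). Irf2, which drives Gsdmd transcription, and Irf8, which acts on Naip and Nlrc4 genes, did not pass, at 0.22 ± 0.22 (adjusted p = 0.475) and 0.69 ± 0.23 (adjusted p = 0.0638). Of 5 Txnip partners 3 rose, among them Slc2a1 and Txn1 described above.

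**Figure D5:**
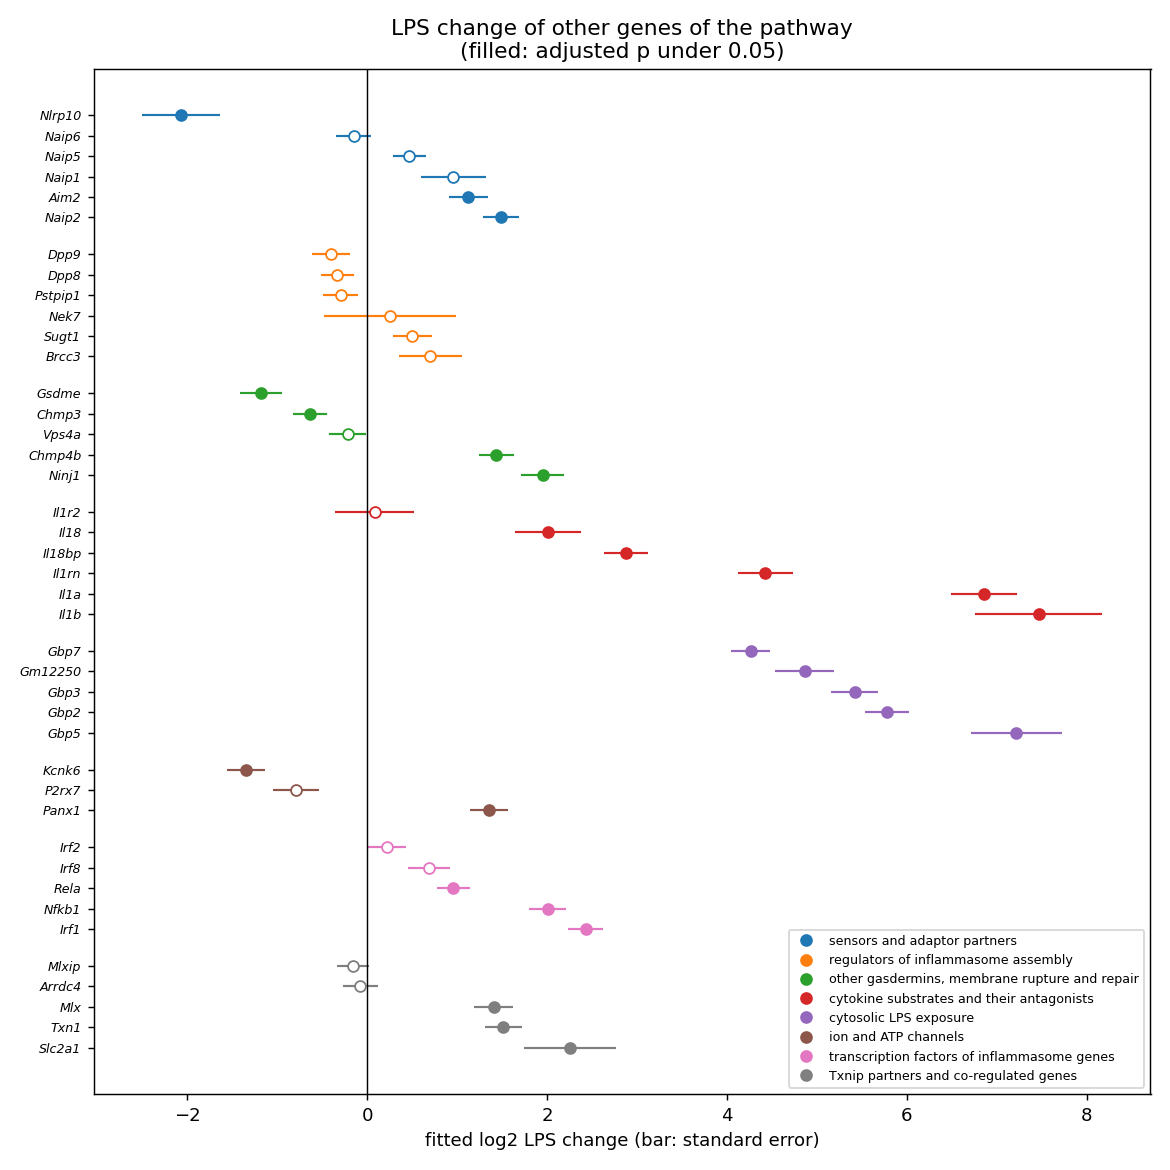
Fitted log2 LPS change of tested pathway genes outside the 10, caspases not drawn, grouped and coloured by list, with bars for standard errors and filled points where the adjusted p was under 0.05. Genes of cytokines and of cytosolic LPS exposure reach the highest values, Il1b at 7.47, and none of the 6 regulators of assembly is filled.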

How the data were processed

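Per the labels and the series design text, poly(A) RNA was sequenced on a HiSeq 2000, processed with Casava 1.8.2 and Cutadapt, and aligned with TopHat 2.0.13. The submitters' processing notes name HTSeq and the build mm8. The authors deposited unnormalized gene counts in a separate file for each library, and no file states strand or multi-mapping settings. Of 52550 versioned Ensembl IDs, 52403 (99.72%) matched GENCODE M21 (GRCm38) without version, which gave symbols and coordinates, whatever build the reads were aligned to.

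Totals were 33937823 to 42074624 counts and TMM factors 1.15, 0.846, 1.16 and 0.890. The quasi-likelihood test of edgeR 4.0.16 in R 4.3.3 was run with genotype and LPS as additive terms on the 12730 genes that reached a CPM of 1 in 2 or more libraries, with Benjamini-Hochberg adjusted p under 0.05 as the call. With 1 degree of freedom left over, genotype by LPS counts as spread, and the standard error is the fitted change divided by the square root of F. Pair ratios of TMM-scaled counts have exact Clopper-Pearson 95% intervals, and ratios of ratios have normal 95% intervals after adding 0.5 counts. A fold against 0 counts used a floor of 3 counts per library.

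The 10 genes and all lists were chosen with earlier results of these data known. Named genes were all 10, the 2 with the highest mean CPM and the 2 with the largest LPS change of each list, and Irf8, Irf2, Arrdc4, Aim2, Il1b, Il18 and Gsdme. Chmp3, Il1r2 and the genes near Nlrp1a or at 0 were named outside this rule, after their values were seen. Alternatives were DESeq2 1.42.0 size factors and Wald test, total counts, no filter, a CPM of 10, no overlapping genes, subtraction of a 2.38% share, models of 1 term with each library left out, fold limits of 1.5 and 4, and, added after seeing the data, edgeR's newer fit. Single values of some list genes are not reported here, though list totals count them. Scripts were tested on simulated data.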

Additional observations from a re-analysis of the deposited data

Results flagged for a closer look

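Nek7, the kinase that joins Nlrp3 in the assembled inflammasome, moved in opposite directions in the LPS pairs. Its log2 LPS ratio was -1.32 in wild-type cells (counting interval -1.39 to -1.24) and 1.83 in deficient cells (1.75 to 1.90). With 1 library per group, the difference was not tested. Nek7 shares 118 exonic bases with another gene.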

How the results depend on the processing

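Of the 8 LPS calls, Casp1, Casp4, Gsdmd, Mefv and Nlrp3 held under all 13 alternatives, with adjusted p-values up to 0.0376. With each library left out in turn from a model of LPS alone, 5 to 9 of the 10 genes passed for LPS (5 without the wild-type unstimulated library), and 20 to 27 of the pathway genes. Pycard lost its call without the wild-type unstimulated (adjusted p = 0.0916) or wild-type LPS library (0.0604), Txnip likewise (0.101 and 0.0619), and Nlrc4 without either unstimulated library (0.081 and 0.0706). The share of all tested genes passing for LPS with a library left out was not computed. The counts of the 10 genes and of the pathway genes in those models therefore have no background to be read against. The fitted LPS change of Nlrp1a ran from -11.20 to 9.40 in the models with a library left out. The value of 9.40 came without the wild-type unstimulated library, where the LPS library was the one wild-type library left. Nlrp1b did not pass for LPS under 11 of 13 alternatives, and passed with DESeq2's Wald test (adjusted p = 0.0389). Without the deficient LPS library its fitted LPS change was -3.70, with the wild-type LPS library as the only LPS library left. For genotype, 0 of the 10 genes passed with a CPM of 10 or more (where Nlrp1a was not tested), with DESeq2's Wald test, with the 2.38% share subtracted, and in a model of genotype alone, with or without any library (0 to 0). Of the pathway genes, 1 passed for genotype with DESeq2's Wald test.

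The genotype change of Casp4 turned positive with total counts (0.0075) and with the subtraction (0.20), and that of Txnip negative without an LPS term (-0.29). A model without that term that leaves out a library sets unequal numbers of LPS libraries against each other, and genotype changes then ran from -1.66 to 3.65 for Mefv, -0.68 to 0.87 for Gsdmd, -2.12 to 1.22 for Casp1, -0.70 to 0.60 for Pycard, -1.99 to 1.59 for Nlrp3, -2.87 to 2.87 for Casp4, -1.10 to 1.67 for Txnip, -0.52 to 0.65 for Nlrc4 and -0.36 to 3.46 for Nlrp1b. Signs opposite to the fit with both terms came without the wild-type unstimulated library for Mefv (-0.24), Gsdmd (-0.36) and Nlrc4 (-0.39), without the deficient unstimulated library for Casp1 (0.21), Nlrp3 (0.19), Casp4 (0.49) and Txnip (-1.01), and without the deficient LPS library for Pycard (0.18), beside the ends of these ranges. With a 4-fold limit, Nlrp1a alone was beyond it between genotypes without LPS and Nlrp1b alone in the difference between LPS effects. The share of all tested genes at that limit was not computed. With a 1.5-fold limit, 4 of the 10 were beyond it in that difference, against 8.94% of tested genes lower and 6.07% higher. No paired analysis was possible because each group is 1 library, whose replicate number is only a name; the genotype term of the model already compares LPS within each genotype. The effect of depth was not tested. Lowest of the 10 genes in counts were Mefv in the wild-type unstimulated library (177), Nlrp1b in the wild-type LPS library (42) and Nlrp1a in both deficient ones (0). Nlrc4 had 721, 1030, 636 and 1206 counts.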
